A study of Homo sapiens with 4 samples.

Results

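Progenitor 2 is 1 of the 2 progenitor classes in the deposited annotation of nuclei from enteric ganglioids, which are free-floating three-dimensional cultures of enteric neurons and their precursors. Its members were chosen by that annotation alone, and they numbered 3800 of 14812 annotated nuclei. There were 1155 in control replicate 1, 683 in control replicate 2, 1107 in PP121 replicate 1 and 855 in PP121 replicate 2. The other annotated classes held 6557 enteric neuron, 2892 Progenitor 1, 903 mesenchymal, 92 epithelial and 568 unknown nuclei, and barcodes that the annotation marks as filtered were dropped. All 4 samples were stage 1 ganglioids made from H9, a human embryonic stem cell line, and single nuclei were sequenced from their 3′ ends. The 2 PP121 samples received 2 µM PP121, a small-molecule inhibitor of several kinases, from day 15 to day 20, and the 2 control samples did not. Each sample pooled ganglioids of 1 independent differentiation, and all came from 1 line. The spread between replicates is therefore one of differentiation and day together, and not of donors. The annotation dates replicate 1 of both groups to day 42 and replicate 2 of both groups to day 38, so the replicate number and the day cannot be told apart.

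The enteric nervous system is built by neural crest cells that migrate into the gut, keep dividing, and give rise to neurons and glia. Neural progenitors are kept from differentiating by Notch signalling, whose receptors switch on HES repressors, and by SOX transcription factors. When a progenitor turns into a neuron it leaves the cell cycle, shuts these genes down and switches on genes for the cytoskeleton, adhesion and synapses.

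The Progenitor 2 nuclei held a median of 6706, 6664, 6242 and 6544 unique molecular identifiers (UMIs, each standing for 1 captured RNA molecule) in the 2 control samples and then the 2 PP121 samples, replicate 1 first, which is the order of every set of 4 values. Summed over the class, the depth was 8938818, 5403954, 7927868 and 6475793 UMIs. Levels are given as UMIs of a gene per 1000000 UMIs of the class in a sample (CPM). The control libraries carry names in the annotation that differ from their labels: control replicate 1 is called replicate 2 there, and control replicate 2 is called replicate 1 and stage 2. The PP121 names match, and the labels were followed. Of the 3800 barcodes, 1 was shared between libraries. Between 6.05% and 9.35% of the nuclei per sample were doublet candidates, meaning that they were among the highest-scoring 6% of their sample, and these were kept. Mesenchymal nuclei numbered 40 and 33 in the replicate 1 samples and 408 and 422 in the replicate 2 samples.

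Of the 4 markers given for the class, 3 set Progenitor 2 apart from enteric neurons and 1 was nearly absent. SOX2, a transcription factor that keeps neural progenitors undifferentiated, was at 61.1, 55.9, 56.4 and 62.2 CPM, against 13.8, 14.2, 12.3 and 17.8 in the enteric neurons of the same samples. The SOX2 levels hardly differed between the 4 samples, and none came near the neuronal range. SLC1A3, the glutamate transporter GLAST of radial glia and astrocytes, was at 381, 286, 233 and 143 CPM, against 19.9 to 25.2 in neurons. Both PP121 samples lay below both controls for SLC1A3. SLC1A3 was not particular to progenitors, since the mesenchymal nuclei averaged 1199 CPM.

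PRDM16, a transcriptional regulator of neural stem cells, was at 82.4, 97.7, 154 and 117 CPM in Progenitor 2 and at 5.96, 9.29, 14.2 and 22.0 CPM in neurons. The unknown nuclei reached 65.2, 82.9, 152 and 252 CPM, so that PRDM16 did not separate these 2 classes. FABP7, a fatty acid binding protein of radial glia, gave 134 UMIs in all 3800 nuclei, or 6.94, 3.52, 5.42 and 1.54 CPM. SOX2 also stood at 47.8 CPM in Progenitor 1 and 49.95 CPM in unknown nuclei on average.

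Per nucleus the markers were sparse. After every nucleus was thinned to 2000 UMIs, which left 1148, 677, 1100 and 851 Progenitor 2 nuclei, SOX2 was detected in 11.9% (95% Clopper-Pearson interval 10.1 to 14.0), 12.6% (10.2 to 15.3), 9.00% (7.37 to 10.8) and 10.2% (8.27 to 12.5) of them. Enteric neurons gave 2.75%, 3.13%, 2.42% and 4.00% for SOX2. SLC1A3 was detected in 43.1%, 37.2%, 31.7% and 21.3% of Progenitor 2 nuclei against 3.01% to 4.09% of neurons. PRDM16 was detected in 14.6%, 18.5%, 27.2% and 19.6% against 0.917% to 2.98%. All 3 shares exceeded the neuronal share in every sample, where neurons were the deeper class with medians of 7210 to 8102 UMIs.

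FABP7 was detected in 1.74% (20 of 1148), 0.443% (3 of 677), 0.636% (7 of 1100) and 0.470% (4 of 851) of thinned nuclei, against 0.0494% to 0.262% of neurons. The intervals of the classes were apart in control replicate 1 (1.07 to 2.68 against 0.0962 to 0.569) and overlapped in the other 3 samples. At least 1 of the 4 markers was seen in 57.2%, 55.4%, 54.6% and 43.6% of thinned Progenitor 2 nuclei, in 23.3% to 28.9% of Progenitor 1 nuclei and in 6.97% to 10.3% of neurons. Mesenchymal nuclei gave 62.5%, 42.5%, 66.7% and 53.1%, unknown nuclei 34.1%, 35.6%, 37.8% and 52.1%, and epithelial nuclei 11.1% to 52.0%. Carrying at least 1 marker thus did not set Progenitor 2 apart from the mesenchymal class. At least 2 of the 4 markers were seen in 13.2%, 12.0%, 12.7% and 7.76% of thinned Progenitor 2 nuclei. Mesenchymal nuclei gave 0% to 2.50% for at least 2 markers, and unknown nuclei gave 3.39% to 10.7%. Without thinning, SOX2 was detected in 30.2%, 30.5%, 27.9% and 30.3%, FABP7 in 4.42%, 1.76%, 2.53% and 0.936%, SLC1A3 in 70.7%, 66.6%, 57.5% and 47.8%, and PRDM16 in 36.0%, 40.1%, 52.9% and 42.5% of Progenitor 2 nuclei. These intervals cover counting error alone.

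**Figure D1:**
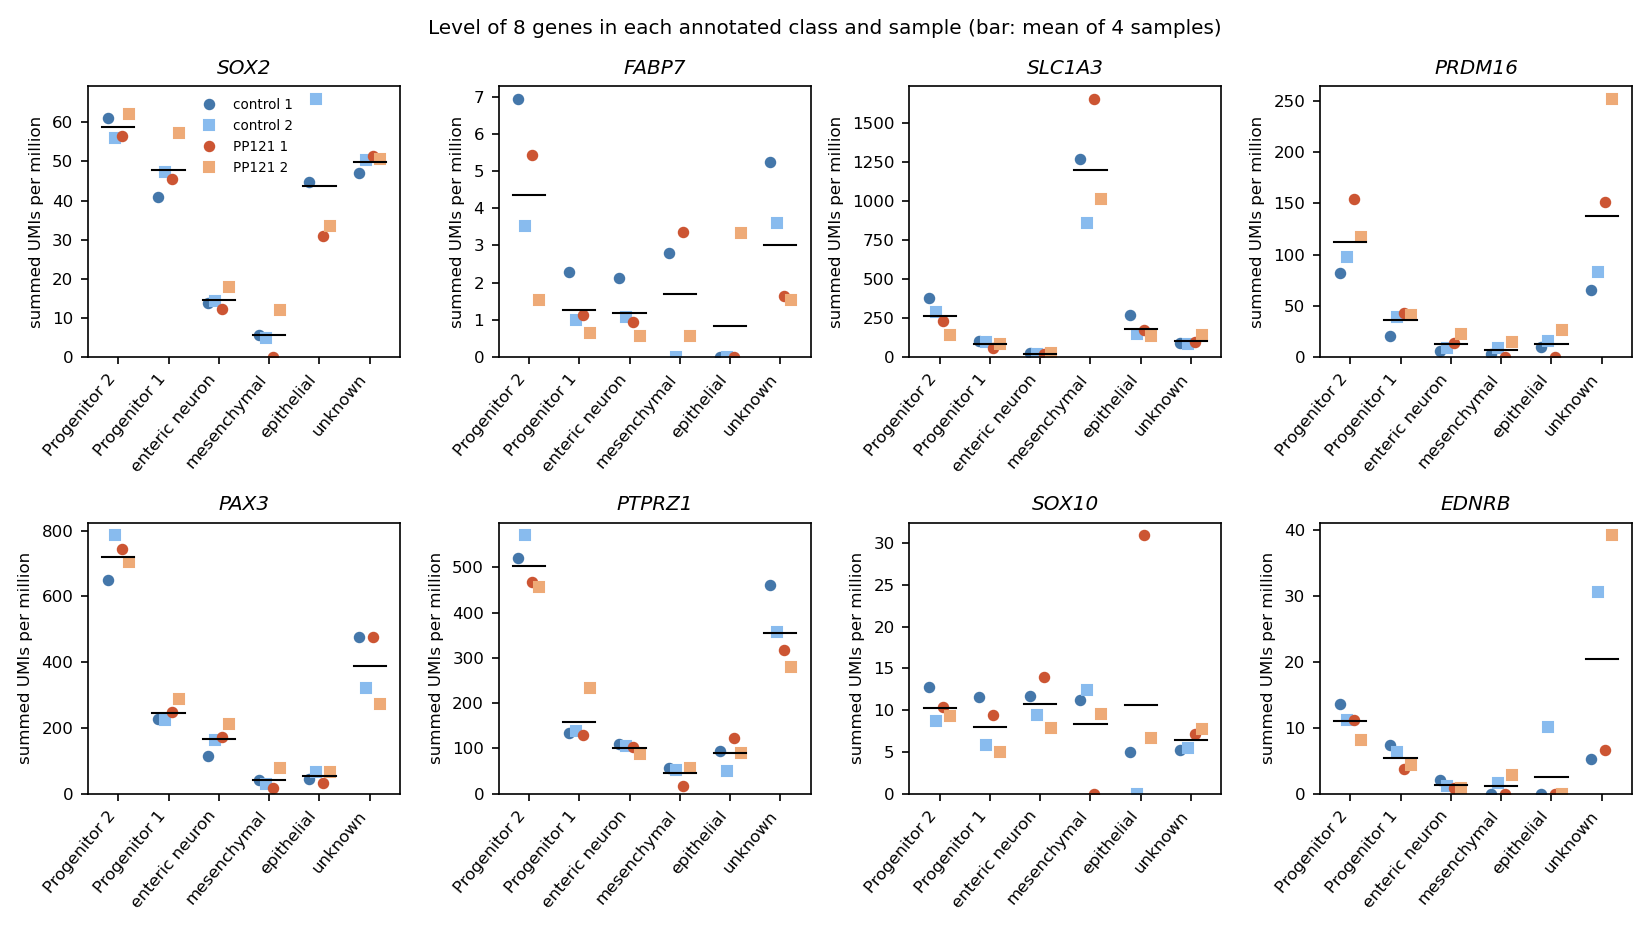
Summed UMIs per 1000000 (CPM, linear axes) of 8 genes in each annotated class, with 1 point per sample and a bar at the mean of 4 samples. SOX2, SLC1A3 and PRDM16 are higher in Progenitor 2 than in enteric neurons in all 4 samples, SLC1A3 is highest in mesenchymal nuclei, FABP7 reaches no more than 6.94 CPM in Progenitor 2, and SOX10 has no excess there.

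Against the enteric neurons of the same sample, 331 of 12201 genes (2.71%) were at least 2-fold higher in Progenitor 2 in all 4 samples and 349 (2.86%) at least 2-fold lower. Ratios are of CPM + 10 within a sample, over genes with a mean of at least 10 CPM in either class. The annotation was made by clustering these nuclei on their gene counts, so these comparisons between classes are a description and carry no test. Among the genes with the strongest excess, NFIA, a transcription factor that starts gliogenesis, was at 606, 660, 537 and 618 CPM against a mean of 54.5 in neurons. SHROOM3, which constricts the apical side of neuroepithelial cells, was at 371, 482, 387 and 516 CPM against 43.2. PARD3B, of the PAR cell polarity family, was at 978, 776, 824 and 638 CPM against 80.8. These genes were ranked by the weakest of their 4 within-sample ratios, so an excess in every sample followed from the ranking.

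The 15 genes with the strongest excess included a transcription factor and a co-receptor of Hedgehog signalling. GLI3, a transcription factor that represses Hedgehog targets when the ligand is absent, was at 256, 404, 374 and 528 CPM against 53.3, and BOC, a co-receptor of Hedgehog ligands, was at 287, 402, 409 and 426 CPM against 53.5. YAP1, the coactivator restrained by Hippo signalling, was at 237, 266, 263 and 264 CPM against 37.2. RFX4, a transcription factor of the developing neural tube, was at 814, 998, 988 and 1314 CPM against 185. PDE1A, a calcium-dependent phosphodiesterase, was at 761, 1025, 1334 and 1589 CPM against 129. MEGF10, an engulfment receptor of astrocytes and muscle precursors, was at 211, 249, 210 and 156 CPM against 25.3. The others of the 15, which were ranked by the weakest of their 4 ratios, were AC092957.1, AC079385.1, LHFPL6, LINC01515, IQGAP2 and ILDR2.

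All 7 genes that the study uses to mark progenitors were at least 2-fold higher than in neurons in all 4 samples, with a median log2 ratio of 1.56 against 0.03 for all genes, although a list the study drew from these nuclei is no independent evidence. Of 20 neural stem cell genes 18 were measured and 8 were higher in this way (median 1.19), namely SOX2, HES1, HES5, NES, VIM, GLI3, TCF7L1 and TCF7L2. PAX3, a paired-box transcription factor of the dorsal neural tube and early neural crest, was at 650, 787, 744 and 705 CPM against 165 in neurons. It was detected in 61.5%, 68.8%, 67.7% and 63.5% of thinned nuclei against 13.4% to 21.1% of neurons. PAX7, its close relative, was at 110, 171, 134 and 162 CPM against 42.6.

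In the Notch pathway 6 of 18 listed genes were at least 2-fold higher in all 4 samples (12 measured, median 1.36), namely the receptors NOTCH1, NOTCH2 and NOTCH3 and the target repressors HES1, HES4 and HES5. NOTCH1 was at 89.9, 108, 91.6 and 84.8 CPM against 17.96 in neurons. HES5 was at 66.0, 77.9, 94.6 and 83.9 CPM against 10.3, and HES1 at 42.7, 32.4, 61.8 and 53.9 against 7.504. Receptors and their targets thus stood above neurons together. Of 19 receptors for WNT, BMP and FGF ligands 15 were measured and 4 were higher. Of these, ROR1, a receptor for WNT5A, was at 167, 175, 334 and 261 CPM against 29.2, and FGFR2 was at 107, 192, 145 and 225 CPM against 27.4. The remaining pair were BMPR1B and FGFR3.

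Of 18 cell cycle genes 15 were measured and 9 were higher in all 4 samples, with a median log2 ratio of 1.55. MKI67, a proliferation marker, was at 26.2, 28.5, 41.1 and 50.3 CPM against 5.63 in neurons, and RRM2, a subunit of ribonucleotide reductase, was at 52.6, 67.2, 75.4 and 107 against 7.32. TOP2A, the topoisomerase of dividing cells, was at 75.4, 93.8, 91.1 and 128 CPM against 23.7. After thinning, MKI67 was detected in 2.96%, 3.69%, 5.27% and 5.76% of Progenitor 2 nuclei.

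Of 21 radial glia genes 10 were measured. SLC1A3, PTPRZ1, QKI, NFIA, NFIB, GPM6B and PTN were higher in all 4 samples and SLC1A2 was lower, with a median of 1.98. PTPRZ1, a receptor phosphatase of radial glia, was at 519, 571, 467 and 456 CPM against 101 in neurons. SLC1A2, the second glial glutamate transporter, was at 14.1, 13.5, 16.7 and 8.65 CPM against 96.7. GFAP and AQP4, genes of mature glia, and HOPX, all of the same list, were at 0.5 CPM or less in every sample.

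**Figure D2:**
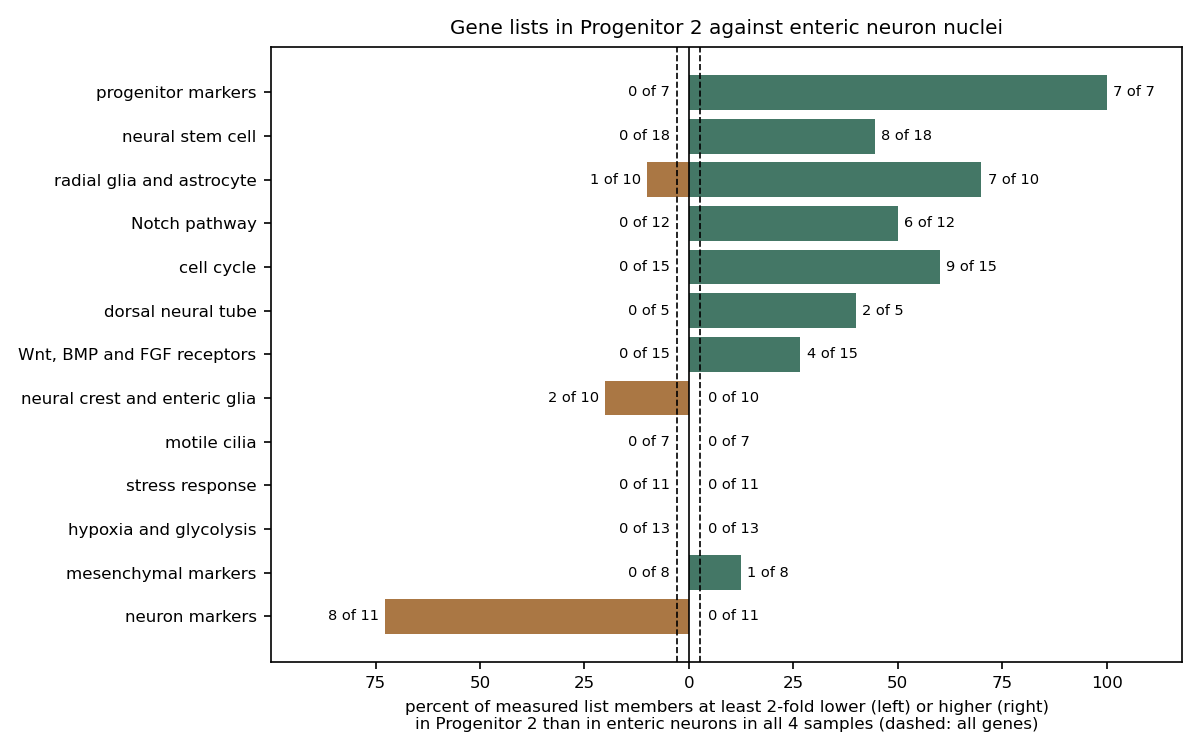
Percent of the measured genes of each list that were at least 2-fold lower (left, brown) or higher (right, green) in Progenitor 2 than in enteric neurons in all 4 samples, with counts beside the bars and dashed lines at the percent over all genes (2.86 and 2.71). Progenitor, radial glia, cell cycle, Notch and neural stem cell genes extend to the right and neuron genes, 8 of 11, to the left.

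Among the 10 genes furthest below the neurons, NRXN3, a presynaptic adhesion molecule, was at 686, 429, 432 and 325 CPM against 4974, and SLC6A5, the glycine transporter of glycinergic neurons, was at 54.0, 28.3, 36.4 and 25.02 against 383. DSCAM, KLHL1, CCSER1, MYT1L, GRIA2, GRIK3, PLD5 and LUZP2 completed the 10. DCX, a microtubule protein of young neurons, was at 109, 104, 89.2 and 130 CPM against 535. Of the 11 neuron genes that the study uses, 8 were at least 2-fold lower in all 4 samples, and their summed level was 2101, 1659, 1794 and 1581 CPM against 7822 to 10785 in neurons.

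Of 19 crest and enteric glia genes 10 were measured, none was higher in all 4 samples, and TFAP2A and TFAP2B, transcription factors of the crest, were lower. SOX10, the defining transcription factor of crest progenitors and enteric glia, was at 12.8, 8.70, 10.3 and 9.27 CPM against 10.8 in neurons. EDNRB, the endothelin receptor of migrating crest, was at 13.5, 11.1, 11.1 and 8.18 CPM against 1.23, with a mean log2 ratio of 0.90 once 10 CPM is added to both. ERBB4, a neuregulin receptor, was at 1425, 1667, 1817 and 1921 CPM with a mean of 1426 in neurons.

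HOX genes, which mark position along the body axis, were few. Of 39 HOX genes 15 had any UMI and 24, among them HOXA5, HOXA7 and HOXA9, had none in Progenitor 2. HOXA3 was at 28.8, 29.1, 23.5 and 27.5 CPM against 32.4 in neurons, and HOXB3 at 33.4, 22.9, 28.0 and 32.1 against 64.9. These paralogues mark the hindbrain and the vagal level. SHH, OLIG2 and FOXA2, genes of the ventral neural tube, were at 0.8 CPM or less in every sample.

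Progenitor 2 was at least 2-fold higher than the mesenchymal nuclei in all 4 samples for 347 of 12451 genes (2.79%) and lower for 299 (2.40%). Of the study's 13 mesenchymal genes 9 were lower in Progenitor 2, with a median log2 ratio of −3.79. COL3A1 averaged 915 CPM in mesenchymal nuclei and COL1A2 averaged 863, both being fibrillar collagens. PRRX1, a transcription factor of mesenchyme, averaged 322 CPM there and 2.13 CPM in Progenitor 2. PAX3 averaged 41.7 CPM in mesenchymal nuclei, and PDE1A 77.5, against 721 and 1177 in Progenitor 2. SOX2 averaged 5.67 CPM there.

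Against the 92 epithelial nuclei 148 of 12459 genes (1.19%) were higher in Progenitor 2 and 151 (1.21%) were lower. SPON1, a secreted protein of the floor plate, led the lower side at 23.3, 17.4, 22.6 and 26.9 CPM against a mean of 1962. Of the epithelial genes CDH1, EPCAM and KRT19 that the study uses, 2 were measured and none differed in this way. Against the unknown nuclei 86 of 12298 genes (0.699%) were higher and 235 (1.91%) were lower. None of 18 measured neural stem cell genes was higher or lower in all 4 samples in that comparison. Of 11 measured dorsal neural tube genes 6 were lower in Progenitor 2, and so were 4 of 14 genes of motile cilia. LMX1A, the transcription factor of the roof plate, was at 0.671, 0.370, 1.14 and 2.47 CPM against a mean of 408 in unknown nuclei. The remaining lists held markers of cell types that the cultures could also contain. Summed, 8 blood, endothelial and immune genes were at 7.69 to 14.1 CPM in Progenitor 2, 7 oligodendrocyte precursor genes at 23.9 to 31.4 CPM, and 8 genes of ciliary and choroid epithelium at 54.6 to 71.0 CPM. The 8 myogenic genes, which include PAX7, summed to 349, 417, 378 and 396 CPM in Progenitor 2 and 271 to 305 CPM in neurons, and the defining genes MYOD1 and MYF5 had no UMI in Progenitor 2.

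A few genes stood above the enteric neuron, mesenchymal, epithelial and unknown classes at once, counted over the summed samples. ANGPT1, the ligand of the endothelial TIE2 receptor, had the largest ratio to the nearest of these classes, 2.35 on the log2 scale, and was at 98.6, 94.0, 147 and 94.8 CPM in Progenitor 2 against 5.26 to 13.5 CPM in the summed samples of those 4 classes. PPP2R2B, a regulatory subunit of protein phosphatase 2A, followed at 1345, 1095, 1246 and 335 CPM with a ratio of 2.07 to the nearest class. PPP2R2B was far lower in PP121 replicate 2 than in the other 3 samples. AL357507.1, at 424, 62.5, 162 and 4.63 CPM, was ranked on the pooled samples too, and in PP121 replicate 2 it lay below the pooled level of each of those 4 classes (9.85 to 31.5 CPM). AL356277.3 was likewise highest in control replicate 1 and near 0 in PP121 replicate 2, at 132, 12.4, 35.4 and 0.15 CPM. MEGF10 (2.06) and PHYHIPL (1.90) were the other protein-coding genes of the 10. The rest were the transcripts AL357507.1, LINC00621, AL356277.3, MEF2C-AS2, LINC00461 and PANTR1. Progenitor 1 was not part of this ranking. Pooled log2 ratios of the 10 genes to Progenitor 1 ran from 0.456 for LINC00461, at 896 against 650 CPM, to 2.20 for ANGPT1. MEF2C-AS2 lies antisense to MEF2C, and whether strand was used in counting is not given in the sources used here.

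Against Progenitor 1, Progenitor 2 was at least 2-fold higher for 479 of 11962 genes (4.00%) and lower for 103 (0.861%). Of 19 measured neural stem cell genes only GLI3 was higher in all 4 samples, with a list median of 0.35. Among the leading genes of this comparison were PDE1A, DACH1, a transcription factor, and NTRK2, the receptor of brain-derived neurotrophic factor, the last at 581, 520, 572 and 484 CPM against a mean of 93.5 in Progenitor 1. Among genes higher in Progenitor 1 were EIF2AK3, the kinase PERK of the unfolded protein response, at 349 CPM against a mean of 114 in Progenitor 2, DNAJC3, a chaperone inhibitor of the same response, and NEAT1, a nuclear long noncoding RNA. Across 14150 genes the correlation of Progenitor 2 levels with those of another class of the same sample was 0.899 to 0.914 for enteric neurons, 0.893 to 0.915 for Progenitor 1, 0.879 to 0.910 for unknown, 0.780 to 0.870 for mesenchymal and 0.774 to 0.883 for epithelial nuclei. These correlations are across genes of 1 library, which are not independent replicates, and the smallest classes have the noisiest levels.

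Progenitor 2 was not uniform. Clustering of its nuclei gave 7 sub-clusters, which are described once since their genes define them. The largest held 1015 nuclei and was led by AC068308.1, CLVS1, AGBL1, SMOC1 and ADAMTSL1. The second, of 755 nuclei, had AL357507.1, AL356277.3, FSTL5 and THRB among its leading genes. A sub-cluster of 506 nuclei was led by the noncoding transcripts AC092958.4, LINC02032, AC092958.1, AC092957.1 and AL137139.2, and its nuclei carried 41.0 CPM of WNT3A and 96.9 CPM of BMP5, a WNT and a BMP ligand of the dorsal midline. A sub-cluster of 491 nuclei was led by DIAPH3, RRM2, CDC25C, ASPM and TOP2A. By the deposited call every nucleus of it was in S or G2/M phase, against 42.4% to 61.3% of the nuclei in the other 6. MKI67 was at 180 CPM there against 3.27 to 14.9 in the other 6.

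A group of 330 nuclei was led by PAX8-AS1, PLD5, NRXN3, PAX8 and PAX2. It had a median of 11771 UMIs, 65.8% of its nuclei were doublet candidates against 0.985% to 3.46% in the other sub-clusters, and 34.8% had mostly enteric neurons among their 15 nearest neighbours. NRXN3 was at 2460 CPM in it and at 137 to 204 CPM in the other sub-clusters. It held 69.1% of all NRXN3 UMIs, 87.2% of PAX8 UMIs and 80.8% of PLD5 UMIs of Progenitor 2, but only 8.13% of SOX2 and 8.26% of PAX3 UMIs. Whether these nuclei are doublets, or progenitors turning into neurons, was not tested. Where a result was also run without them and changed, it is given both ways. A pair of sub-clusters, of 641 and 62 nuclei, were led by ribosomal protein genes and had the lowest median depths, 4847 and 3926 UMIs. SOX2 ranged from 35.1 to 207 CPM, SLC1A3 from 181 to 379 and PAX3 from 336 to 1073 over the 7 sub-clusters, so none lacked these genes.

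**Figure D3:**
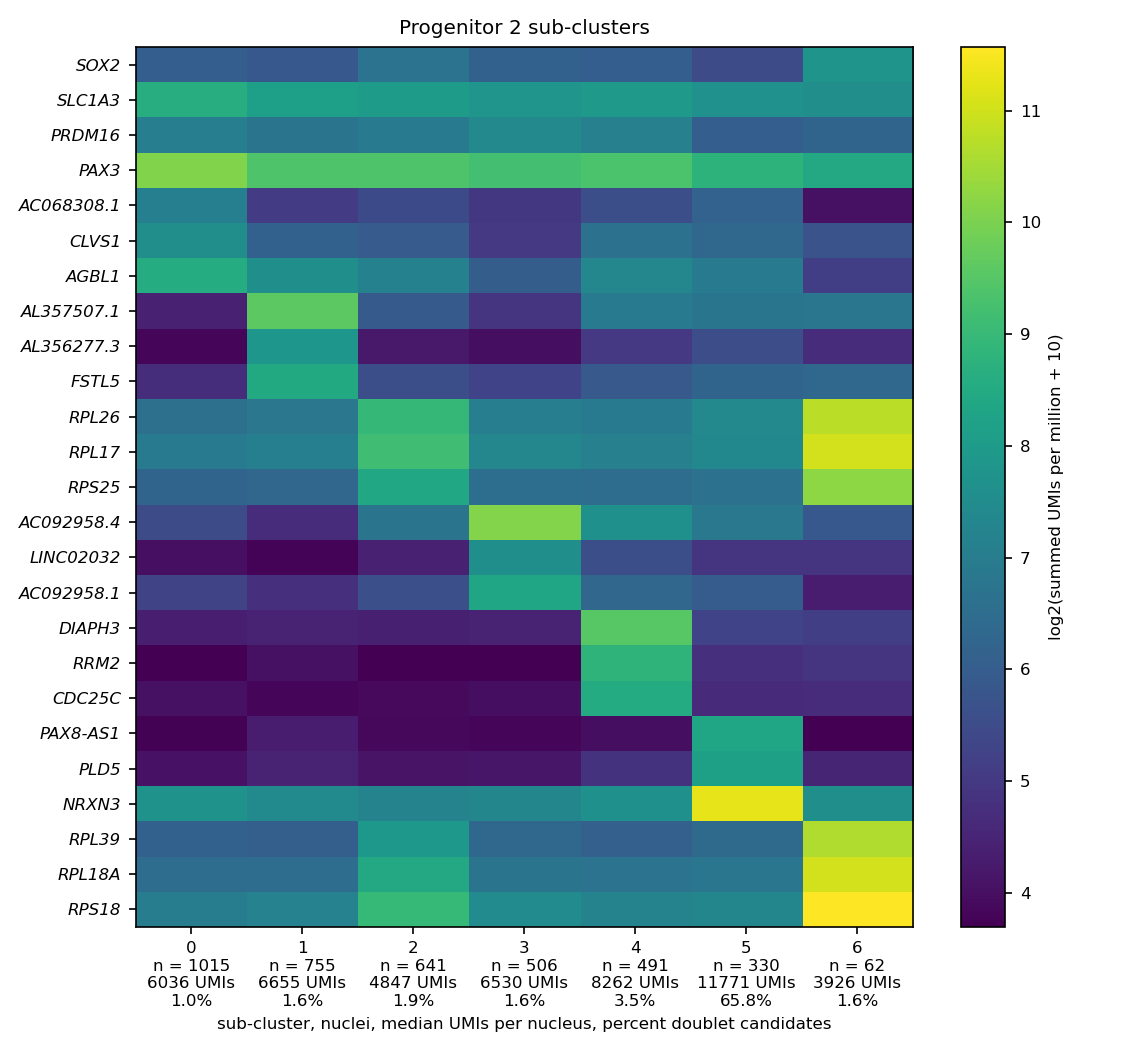
Heat map of log2(CPM + 10), pooled over the 4 samples, for SOX2, SLC1A3, PRDM16, PAX3 and the first 3 leading genes of each of the 7 sub-clusters of Progenitor 2, with the nuclei, the median UMIs and the percent of doublet candidates under each column. NRXN3 is brightest in the sub-cluster of 330 nuclei, which has 65.8% doublet candidates, while SLC1A3 and PAX3 are present in all 7.

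The first comparison between conditions asks whether an early pulse of PP121 changed how many nuclei were Progenitor 2. They made up 27.0% (95% Clopper-Pearson interval 25.6 to 28.3), 22.5% (21.1 to 24.1), 24.1% (22.9 to 25.4) and 29.4% (27.7 to 31.1) of the annotated nuclei. The 2 PP121 samples held the second-lowest and the highest share, so the groups overlapped. Control samples averaged 24.8% ± 3.13 (SD, n = 2), and PP121 samples averaged 26.7% ± 3.70 (SD, n = 2). The difference of 1.99 percentage points was smaller than the spread between replicates (exact permutation test, two-sided, p = 0.667; 2 against 2 samples cannot go below 0.33). Within replicate 1 the share was 2.83 points lower with PP121 (a difference of −2.83) and within replicate 2 it was 6.82 points higher. The share depends on the size of the other classes, among them the mesenchymal nuclei.

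The second comparison asks which genes differed with PP121 inside the class, on counts summed per sample. Members of the dorsal neural tube, hypoxia and glycolysis, and cell cycle lists were higher with PP121 and SLC1A3 and MEF2C were lower, and in edgeR they passed the test where same-numbered samples were compared within their pair. Without that pairing, edgeR's quasi-likelihood test called 0 of 18885 genes (0.00%) at an adjusted p of 0.05, with 1774 genes at an unadjusted p under 0.05, and DESeq2 called 98. With the replicate number as a block it called 828 genes higher (4.38%) and 439 lower (2.32%), with 1 residual degree of freedom per gene, and DESeq2 with the block called 239. The labels' numbers were taken to pair the samples because both samples of a number share their annotated day. The replicate numbers in the annotation's own names of the controls would cross that pairing, so every blocked call rests on the labels and the day. The words "rose" and "fell" in the next paragraphs refer to the blocked fit. Leaving out PP121 replicate 1 gave 1052 calls without the block, and leaving out PP121 replicate 2 gave 231.

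The smallest p without the block belonged to AL137139.2, a transcript at 48.2, 64.0, 183 and 204 CPM (log2 change 1.82, adjusted p = 0.157 by edgeR). NRG1, the neuregulin ligand of ERBB receptors, was at 87.7, 82.2, 197 and 183 CPM. MT-CO3, a mitochondrial subunit of cytochrome oxidase, was at 53.1, 47.0, 18.8 and 19.9 CPM. In all 3 genes the groups did not overlap, and the replicates of a group differed little. AL137139.2 is a leading gene of the sub-cluster of 506 nuclei, which held 3.03%, 9.81%, 17.4% and 24.7% of Progenitor 2 in the 4 samples. Without those nuclei AL137139.2 rose by 1.61 on the log2 scale (adjusted p = 5.09e-26 in the blocked edgeR fit), a setting chosen after seeing the data. The mean share of mitochondrial reads was 0.0401%, 0.0348%, 0.0208% and 0.0169%, and its part in these results was not tested.

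The 5 largest rises were taken among genes that passed, with a mean of at least 10 CPM and both PP121 samples above both controls. Among them, WNT3A, a ligand that drives proliferation of dorsal progenitors, was at 2.13, 2.22, 10.5 and 28.4 CPM. These levels came from 19, 12, 83 and 184 UMIs in 13, 12, 56 and 99 nuclei. WNT3A rose by 2.99 ± 0.30 (SE) on the log2 scale (adjusted p = 8.78e-12 in the blocked edgeR fit and 0.174 without the block). WNT3A stayed at 1.32 to 2.86 CPM in the enteric neurons of these samples. BMP5, a BMP ligand, was at 1.90, 9.25, 21.1 and 54.7 CPM and rose by 2.92 ± 0.22 (SE) on the log2 scale (adjusted p = 1.81e-16 in the blocked edgeR fit). ROR2, a receptor for WNT5A, was at 6.26, 17.9, 29.9 and 80.1 CPM, CASZ1, a zinc finger transcription factor, at 6.15, 11.1, 24.3 and 61.2 CPM, and TMEM132C at 41.1, 53.5, 134 and 277 CPM. In all 5 genes PP121 replicate 2 was the highest. These genes are unevenly spread over the class: the sub-cluster of 506 nuclei, whose share is given above, held 51.0% of WNT3A, 61.1% of BMP5, 39.2% of ROR2, 40.6% of CASZ1 and 38.6% of TMEM132C UMIs. The make-up of the class thus moved with these genes, and since sub-clusters were made from the expression of these same nuclei, their shares and the levels of these genes cannot be told apart. Without that sub-cluster WNT3A was at 1.84, 0.81, 5.02 and 19.2 CPM and BMP5 at 1.38, 5.87, 8.37 and 27.5 CPM. All 5 genes still rose in the blocked edgeR fit without it, WNT3A by 2.77 and TMEM132C by 1.67 on the log2 scale, and 1347 genes passed, of which 1061 were among the 1267.

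Of 12 measured dorsal neural tube genes 5 rose and none fell, with a median log2 change of 1.06 against −0.004 for all genes. Besides WNT3A and BMP5 these were RSPO1, an enhancer of WNT signalling, at 1.119, 4.44, 7.32 and 13.0 CPM, OLIG3, a transcription factor of dorsal progenitors, with 0, 5, 27 and 26 UMIs, and ZIC2, a zinc finger transcription factor, at 13.8, 16.5, 32.3 and 31.3 CPM. PAX3 did not pass the test (adjusted p = 0.903 in the blocked edgeR fit), and its 2 control samples were its lowest and its highest. PAX7, RSPO1, WNT3A and BMP5 of this list were also higher in replicate 2 than in replicate 1. Without the sub-cluster of 506 nuclei 5 genes of the list rose as well, with a median of 0.85. Of 19 neural stem cell genes 7 rose and none fell, with a median of 0.32. ZIC1, a zinc finger transcription factor of dorsal neural tissue, was at 45.4, 57.7, 100.4 and 117 CPM, and PROM1, a stem cell surface protein, at 8.502, 20.7, 27.8 and 46.3 CPM. HES1 rose while no other of 16 Notch pathway genes passed the test. SOX2 did not pass (adjusted p = 0.933 in the blocked edgeR fit), and its groups overlapped.

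Of 15 measured genes of hypoxia and glycolysis 10 rose and none fell, with a median log2 change of 0.69. ENO1, the glycolytic enolase, was at 66.9, 101, 138 and 233 CPM and rose by 1.16 on the log2 scale (adjusted p = 5.7e-11 in the blocked edgeR fit). HK2, the hexokinase that starts glycolysis, was at 21.9, 30.7, 43.8 and 67.2 CPM, and SLC2A1, the glucose transporter GLUT1, at 28.4, 40.7, 63.1 and 64.7 CPM. The control samples were the lower pair for these 3 genes, but PFKFB4, a regulator of glycolysis at 52.7, 92.7, 91.7 and 232 CPM, overlapped between groups. The summed level of the list was 517, 686, 834 and 1302 CPM in Progenitor 2 and 655, 870, 908 and 1359 CPM in enteric neurons. It was thus ordered alike in both classes, and 7 of the 15 genes also differed between replicates.

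Of 18 cell cycle genes 8 rose and none fell, with a median of 0.44. MKI67 had a log2 change of 0.76, and ASPM, a spindle protein, was at 68.4, 67.5, 92.7 and 100.4 CPM. RRM2 rose, with levels of both PP121 samples above both controls. TOP2A passed narrowly (adjusted p = 0.046 in the blocked edgeR fit) although control replicate 2 exceeded PP121 replicate 1. MKI67, RRM2, ASPM and TOP2A were highest in the sub-cluster of 491 nuclei. That sub-cluster made up 8.92%, 12.4%, 13.8% and 17.5% of Progenitor 2 in the 4 samples, and its part in these changes was not tested. Counts of these lists depended on which nuclei were kept. Without the 330 neuron-gene nuclei 10 hypoxia and glycolysis, 5 dorsal, 6 cell cycle and 5 neural stem cell genes rose. Without doublet candidates these counts were 10, 5, 5 and 4, and without the sub-cluster of 506 nuclei they were 9, 5, 12 and 6.

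Of 15 measured radial glia genes none rose and 2 fell, SLC1A3 and QKI, an RNA-binding protein of glia. SLC1A3 fell, with a log2 change of −0.82 ± 0.12 (SE) and an adjusted p of 2.24e-07 in the blocked edgeR fit, against 0.397 without the block. PRDM16 rose by 0.62 ± 0.13 (SE), with an adjusted p of 0.000655 in the blocked edgeR fit and 0.387 without the block. FABP7, at its 134 UMIs, did not pass (adjusted p = 0.435 in the blocked edgeR fit). Of the 4 given markers, 1 therefore rose and 1 fell. MEF2C, a MADS-box transcription factor among the study's progenitor genes, was at 507, 624, 323 and 232 CPM and fell by 1.01 on the log2 scale. Over all genes, 4.38% rose and 2.32% fell in the blocked edgeR fit. The counts of the lists that follow were not tested against these shares. Of 15 kinases that PP121 is known to inhibit or that are close to these, FLT1, a receptor of VEGF, and IGF1R rose. The median log2 change of these kinases was 0.04 against −0.004 for all genes. FLT1 was at 59.9 CPM in the sub-cluster of 506 nuclei and at 5.89 to 26.8 CPM in the other sub-clusters. Without those nuclei 3 genes of the kinase list rose. Of 16 receptors for WNT, BMP and FGF ligands ROR1 and ROR2 rose. Of 12 stress response genes EGR1, an immediate early gene, rose and none fell. Of 12 genes of motile cilia 3 rose and 1 fell.

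The 5 largest falls were taken within the matching limits. For 4 of them, the 330 neuron-gene nuclei held between 80.2% and 91.2% of the UMIs of the gene in Progenitor 2. PSD4 was at 43.2, 8.70, 6.69 and 2.16 CPM, and 91.2% of its UMIs came from those nuclei. PAX8, a paired-box transcription factor, was at 51.2, 12.2, 11.6 and 4.01 CPM, and PLD5 at 98.4, 42.6, 23.7 and 9.57 CPM. For each of these 3 control replicate 1 was the highest sample and PP121 replicate 2 the lowest. Without the 330 nuclei the adjusted p in the blocked edgeR fit went from 8.62e-12 to 0.615 for PSD4, from 1.41e-10 to 0.126 for PAX8, from 4.77e-09 to 0.292 for AL591686.2 and from 2.04e-16 to 0.0166 for PLD5. AP003464.1, at 32.7, 5.37, 5.17 and 0.618 CPM, was the last of the 5 and passed with and without the 330 nuclei. It was at 45.1 CPM in the sub-cluster of 755 nuclei and at 0 to 19.9 CPM in the other sub-clusters. The sub-cluster of 755 nuclei made up 38.4%, 12.4%, 18.3% and 2.81% of Progenitor 2 in the 4 samples. Its part in the fall of AP003464.1 was not tested. NRXN3 fell, and without the 330 nuclei its adjusted p in the blocked edgeR fit went from 0.000932 to 0.839. Without the 330 nuclei 1108 genes passed, of which 999 were among the 1267.

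**Figure D4:**
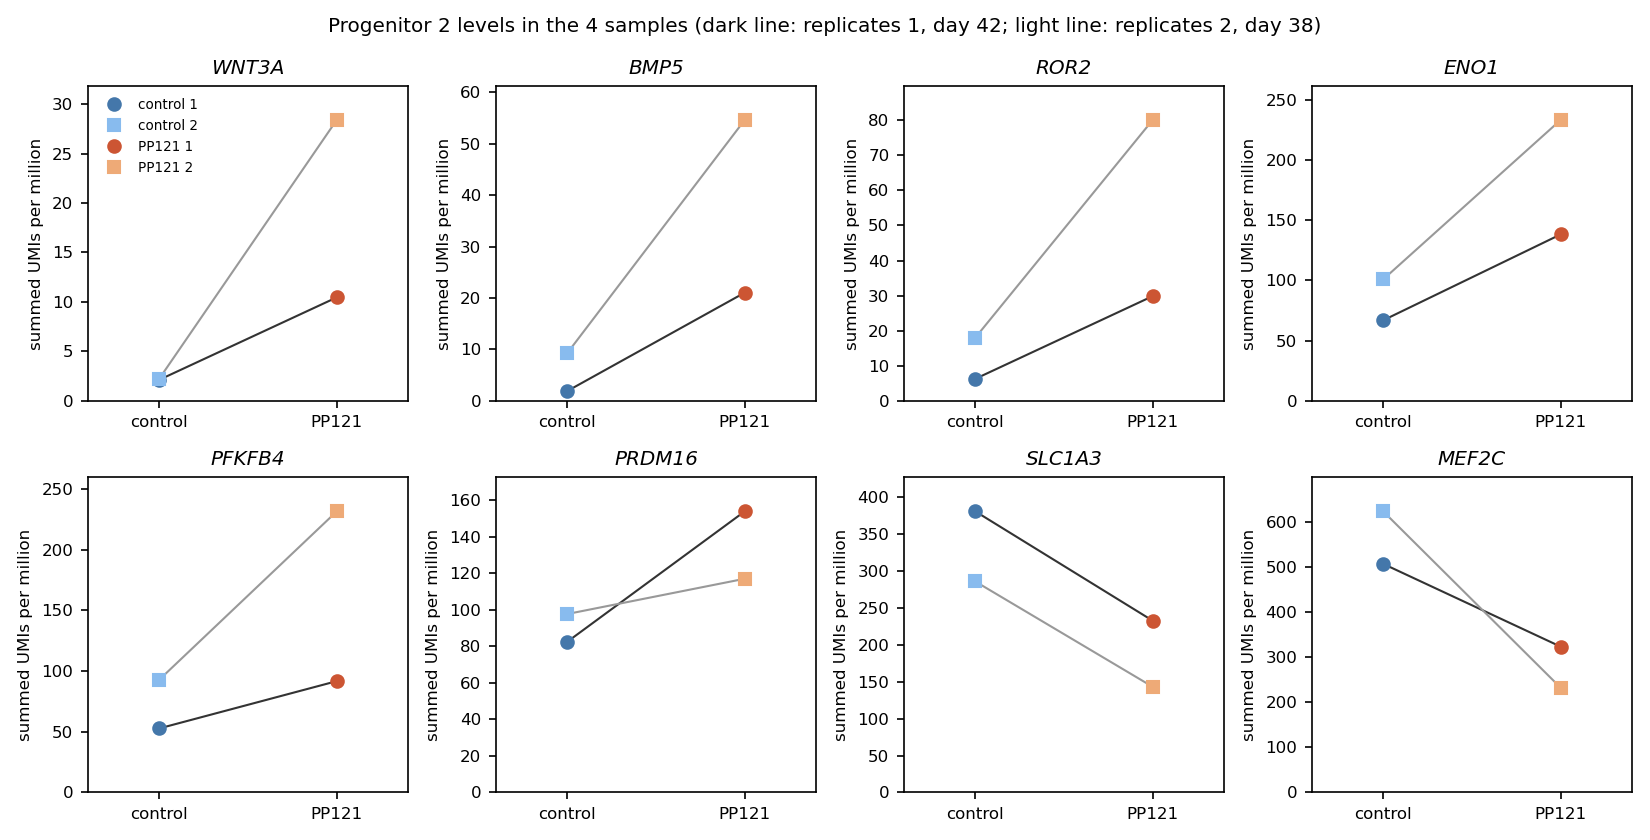
CPM of 8 genes in Progenitor 2 of each sample (linear axes from 0), with lines joining the control and the PP121 sample of the same replicate number. WNT3A, BMP5, ROR2, ENO1 and PRDM16 are higher with PP121 in both pairs, SLC1A3 and MEF2C are lower in both, and for PFKFB4 control replicate 2, at 92.7 CPM, lies beside PP121 replicate 1, at 91.7 CPM.

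**Figure D5:**
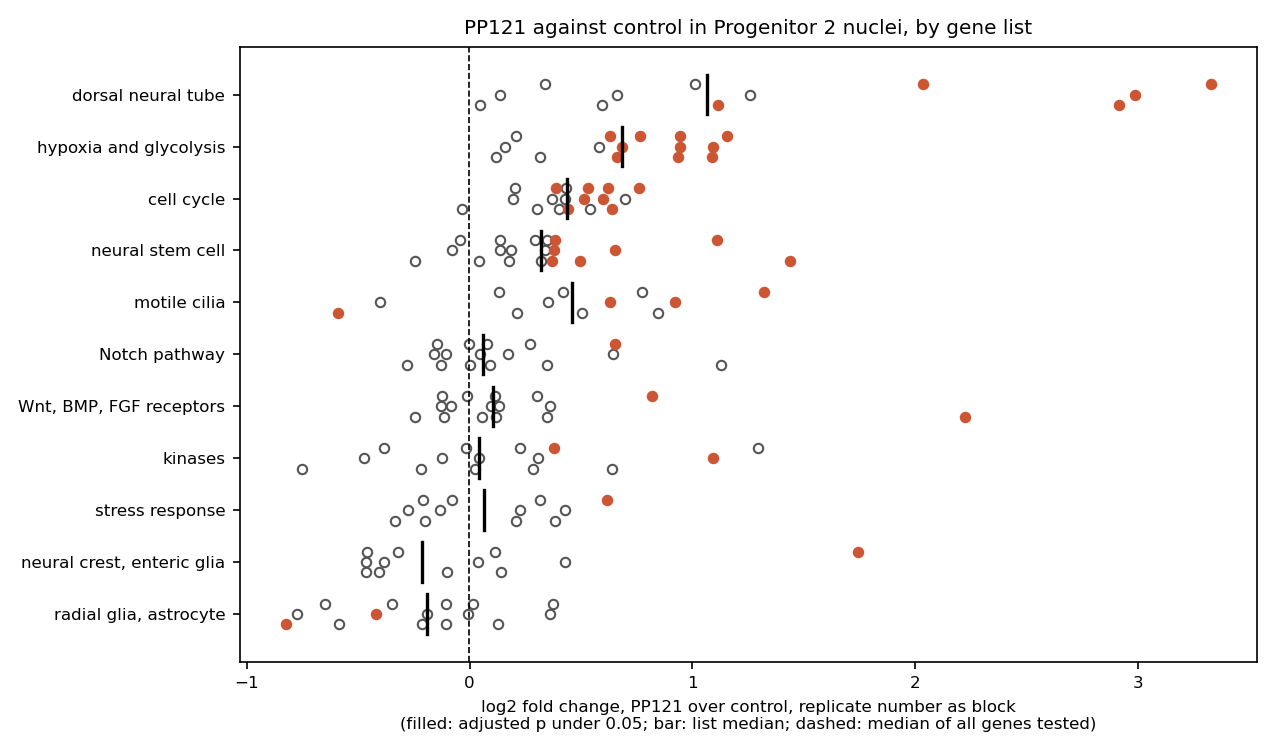
Log2 fold change of PP121 over control, from the edgeR fit with the replicate block, for every measured gene of 11 lists, with filled points for genes at an adjusted p under 0.05, a bar at the list median and a dashed line at the median of all genes. Dorsal neural tube and hypoxia and glycolysis genes lie furthest to the right, with medians of 1.06 and 0.69. The rightmost point, OLIG3, rests on 0, 5, 27 and 26 UMIs.

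Samples of the same treatment also differed between replicates, which differ in day as well. In a fit with a treatment term, edgeR called 481 of 18885 genes higher in replicate 2 (2.55%) and 427 lower (2.26%). The noncoding transcript AL357507.1, one of the 10 genes above the enteric neuron, mesenchymal, epithelial and unknown classes, had a far lower level in replicate 2 (log2 change −3.47 for replicate 2 against 1, edgeR adjusted p = 1.28e-22). THRB, a thyroid hormone receptor, was at 119, 20.9, 52.5 and 8.80 CPM, and SLC7A11, the cystine transporter, at 48.9, 12.8, 33.9 and 5.25 CPM. AL356277.3 and DEC1 were the other 2 of the largest falls. The 5 were taken among genes with a mean of at least 10 CPM and both replicate 2 samples below both replicate 1 samples. All 5 were concentrated in the sub-cluster of 755 nuclei, which held 57.4% of SLC7A11 to 78.1% of AL356277.3 UMIs and made up 38.4%, 12.4%, 18.3% and 2.81% of Progenitor 2 in the 4 samples. Without it edgeR called 354 genes between replicates, of which 344 were among the 908. AL357507.1 still fell (log2 change −2.54, edgeR adjusted p = 0.00231), as did AL356277.3, THRB and SLC7A11, while DEC1 no longer passed (edgeR adjusted p = 0.0519).

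The largest rises in replicate 2 included a mesenchymal gene. COL3A1 was at 3.69, 26.8, 2.65 and 23.8 CPM in Progenitor 2 (log2 change 3.05, SE 0.25, edgeR adjusted p = 2.72e-15) and at 4.12, 17.9, 2.55 and 16.2 CPM in enteric neurons, while mesenchymal nuclei were 40, 408, 33 and 422. Of 12 measured mesenchymal genes 6 were higher in replicate 2 and none lower, and 2 were higher without the sub-cluster of 755 nuclei. Their summed level was 281, 365, 348 and 423 CPM, and the part of RNA from mesenchymal cells in it was not tested. SEMA3A, a repulsive guidance ligand, was at 18.1, 42.7, 30.4 and 184 CPM, FGFBP3, a carrier of FGF ligands, at 11.1, 33.9, 11.2 and 48.8, PDZRN4 at 6.94, 47.6, 5.93 and 15.3, and CDCA7L at 6.82, 17.4, 6.56 and 26.4 CPM. The PDZRN4 UMIs came from 35, 19, 31 and 39 nuclei. In control replicate 2, 10 nuclei held 96.5% of them, and in PP121 replicate 2, 10 nuclei held 65.7%. Besides the genes named, 8 of 19 neural stem cell genes and 5 of 18 cell cycle genes were higher in replicate 2 (4 and 0 without the sub-cluster of 755 nuclei), and SLC1A3, FABP7, PTN and TNC were lower. This comparison shares all 4 samples with that of PP121, so the calls of both are not independent.

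The last comparison asks whether PP121 changed genes differently in Progenitor 2 than in enteric neurons of the same samples. The interaction in edgeR called 0 of 20769 genes (0.00%), with 2085 at an unadjusted p under 0.05, and DESeq2 called 18. AC087564.1 came closest, at 217, 237, 109 and 73.7 CPM in Progenitor 2 and 34.6, 45.9, 55.4 and 34.5 CPM in neurons (log2 difference −1.53, edgeR adjusted p = 0.0513). BBOX1, an enzyme of carnitine synthesis, and TRPM3, a cation channel, were next with differences of −0.98 and 1.35. For WNT3A the difference was 2.42 (edgeR adjusted p = 0.171), for BMP5 1.37 (0.18), for SLC1A3 −0.93 (0.367) and for ENO1 0.26 (0.519). DESeq2 called AC087564.1, BBOX1 and TRPM3, and of the other genes named above it called AGBL1 (log2 difference −1.54, DESeq2 adjusted p = 0.000192), TMEM132C (1.06, 0.0236), PLD5 (−1.34, 0.000637), KLHL1 (−1.01, 0.0378) and AL591686.2 (−1.62, 0.0245). In edgeR none of the PP121 changes described for Progenitor 2 was shown to differ from that in neurons, and with this number of samples a p that misses the threshold does not show that they were alike.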

How the data were processed

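Single nuclei of 4 stage 1 ganglioid samples (2 control, 2 PP121) were measured with 10x 3′ chemistry. The authors deposited UMI counts per nucleus and gene, with metadata that give class, phase, and the percent of mitochondrial and ribosomal reads. The study's methods name kallisto and bustools, and the submitters' processing notes name Cell Ranger, GRCh38 and Seurat 4.0.4, so which of them made the counts is unresolved. Classes and phases were taken as deposited. No per-library column was left unmapped.

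Counts were summed over the Progenitor 2 nuclei of each sample and tested with edgeR 4.0.16 in R 4.3.3 (TMM, filterByExpr, quasi-likelihood, Benjamini-Hochberg). Nuclei are not replicates, and the n is 2 per group. DESeq2 1.42.0, a replicate block, other filters on low counts and on nuclei, and leaving out each sample were alternatives. An adjusted p that DESeq2 left undefined stayed out of its counts. Pairing rests on the day in the metadata, shared by samples with the same number in the labels (the control names in the metadata would cross it), whose deviations from their group means correlated at 0.275 over 18885 genes. The scripts were tested on simulated counts. For edgeR these had the same dispersion for every gene and no shift in the make-up of the class, so they do not bear on such shifts.

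Scrublet scores, neighbours and sub-clusters came from scanpy 1.11.5 (2000 variable genes, 18 principal components, 15 neighbours, Leiden resolution 0.4). Differences between classes carry no test. Genes were named by rule: the given markers, the extreme weakest within-sample ratios to another class with at least 50 CPM, the extreme changes that passed, or the smallest p, and listed genes. Extreme changes were taken among genes with a mean of at least 10 CPM and no overlap between the groups of samples compared. SOX10 and other list members beyond the most abundant, and PSD4's share by sub-cluster, were picked after their values were seen. The members and lists were chosen with earlier results of these data known. A few genes that these rules or lists name are not reported here.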

Additional observations from a re-analysis of the deposited data

Results flagged for a closer look

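The share of Progenitor 2 among annotated nuclei differed with PP121 in opposite directions in the 2 pairs of samples that share a day. In replicate 1 (day 42) it was 27.0% in control and 24.1% in PP121, a difference of −2.83 percentage points. In replicate 2 (day 38) it was 22.5% in control and 29.4% in PP121, a difference of 6.82 points. Each pair holds 1 sample per group, and the difference between the pairs was not tested. Over every deposited nucleus, the filtered ones included in the denominator, the share was 13.5%, 14.1%, 15.8% and 17.3%, and the difference was 2.30 points in replicate 1 and 3.21 points in replicate 2. With each nucleus given the class of most of its neighbours, the differences were 0.664 and 10.6 points. The direction in replicate 1 thus changed with the denominator and with how classes were assigned.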

How the results depend on the processing

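The PP121 comparison depended most on how it was fitted, and the cause was not tested. Against 0 calls in the edgeR fit without pairing, the replicate block gave 1267, DESeq2 98, no filter on low counts 768 and leaving out the 330 neuron-gene nuclei 2. Leaving out 1 sample gave 0 to 1052, with 1052 without PP121 replicate 1, 231 without PP121 replicate 2 and 0 without either control. With the replicate block, 1108 genes passed without the neuron-gene nuclei, 1347 without the WNT3A-rich sub-cluster of 506 nuclei, 1004 without doublet candidates, 1089 among nuclei with mostly Progenitor 2 neighbours, 696 among G1 nuclei and 239 by DESeq2. These 6, and all settings without a sub-cluster, were chosen after seeing the data. Requiring 10 counts or more per sample, and the 3 planned choices of nuclei and leaving out the 506 nuclei, without the block, gave 0, with 1131 to 1806 genes at an unadjusted p under 0.05.

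The 908 replicate calls became 0 without the treatment term (1219 at an unadjusted p under 0.05), 152 by DESeq2 and 390 when 10 counts or more per sample were required, 354 without the sub-cluster of 755 nuclei, and 634 to 970 under the others. Leaving out a sample was not run there or with the block, since no residual degree of freedom remains. The interaction gave 18 calls by DESeq2, 486 without a filter, 1 without doublet candidates and 0 to 145 with 1 sample left out, with 145 without PP121 replicate 1, 4 without control replicate 1 and 2 without PP121 replicate 2.

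The difference in share ran from −0.621 to 4.61 points with 1 sample left out, and turned negative without control replicate 2 (−0.220) or PP121 replicate 2 (−0.621). Within the replicate block it was −2.83 in replicate 1 and 6.82 in replicate 2. Under the others it was 2.50 to 5.62. With a pseudocount of 1 CPM in place of 10, 615 genes were higher and 628 lower than in neurons, and at 4-fold 39 and 52. The mean share of nuclei with a UMI went, without thinning and with thinning to 1000 UMIs, from 10.9% to 29.7% and 5.72% for SOX2, from 33.3% to 60.7% and 20.7% for SLC1A3, and from 20.0% to 42.9% and 11.3% for PRDM16, and without thinning from 0.823% to 2.41% for FABP7. No named gene's change reversed, and 10 named replicate changes were no longer called without the treatment term, SEMA3A by DESeq2 and DEC1 without the 755 nuclei. The depth limits FABP7, SHH and other genes of few UMIs.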
